A study of Mus musculus with 24 samples.

Results

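Neutrophil granule genes were followed in 24 RNA sequencing libraries of mouse splenic CD4+ T cells. The set holds 10 of the 54446 Ensembl gene identifiers in the deposited count table, of which 31367 had a count in any library. All 10 members were found, and all 10 passed the filter on low counts described with the processing. Camp and Ltf passed it only through the Aim2-/- libraries. The primary class holds 5 members, namely Mpo, Elane, Prtn3, Ctsg and Ms4a3. The secondary class holds 4, namely Ltf, Camp, S100a8 and S100a9, and Slpi was kept apart from both. Genes of the set were noticed because their counts were higher in Aim2-/- than in WT libraries, so the genotype difference chose the members and is given below as a description without a test.

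The libraries came from 6 mice on a C57BL6 background, 3 wild type (WT, animals labelled 1, 3 and 4) and 3 lacking AIM2 (Aim2-/-, animals labelled 1, 2 and 4). AIM2 is a cytosolic DNA sensor of inflammasomes. The CD4+ T cells of each mouse were collected unstimulated (0 h) or stimulated through CD3 and CD28 with antibodies for 3, 6 or 24 h, giving 8 groups of 3 libraries. The ages of these animals are not given in the sources used here, and the deficiency is present in every cell of the mouse. The general methods of the study describe purification by immunomagnetic removal of other cells and give the purity only as a lower limit. Other cells may therefore remain, and their share in these libraries is not given. Each mouse is 1 sample, and the 4 libraries of a mouse are not independent of each other.

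Granule proteins are made in waves as a neutrophil matures in the bone marrow. Promyelocytes, which descend from granulocyte-monocyte progenitors, transcribe the primary (azurophil) granule proteins, among them myeloperoxidase (Mpo), neutrophil elastase (Elane), proteinase 3 (Prtn3) and cathepsin G (Ctsg), and shut these genes off before the next stage. Myelocytes and later cells transcribe the secondary (specific) granule proteins lactoferrin (Ltf) and the cathelicidin precursor (Camp). S100a8 and S100a9 encode the calcium-binding pair calprotectin, which lies in the cytosol and is most abundant in late and mature neutrophils. T cells are not a usual source of any of them.

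Library totals ran from 19715161 to 21627018 counts, so 1 CPM (counts relative to the library total after TMM scaling) was about 20 counts. The CD4 T cell markers, 7 of 7 detected, summed to between 4110 and 4160 CPM in the WT libraries at 0 h and to between 4070 and 4370 CPM in the Aim2-/- libraries. Aim2 itself went against 1 label. At 0 h it stood at 75.0 CPM in WT 3, 67.5 CPM in WT 4 and 21.5 CPM in the library labelled WT 1, against 15.69 to 20.09 CPM in the Aim2-/- libraries, and the mouse labelled WT 1 was also the lowest of the WT mice at 3, 6 and 24 h. Genotype ratios of the members are therefore also given without the mouse labelled WT 1. The library serial numbers in the sample descriptions run through the WT libraries before the Aim2-/- libraries, so library order and genotype cannot be told apart.

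The promoters of the members whose values carry the results are shown first, as a description. Within each class the members had the same order of counts over the Aim2-/- mice in unstimulated cells. A link between that order and the promoter letters was not tested. RefSeq gives a window of 300 bases around the annotated start of each of the 10 members on GRCm38.p6, and each was searched on both strands for short motifs of 4 factor families of myeloid cells. These were C/EBP (TTNCNNAA), PU.1 (GAGGAA), RUNX (TGTGGT) and MYB (AACNG). The sequences are written 5′ to 3′ on the strand of the gene. Capitals mark the C/EBP, PU.1 and RUNX matches on either strand, which share no bases with each other in the windows shown. MYB matches are frequent and were left in lower case.

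Mpo chr11:87793534-87793833 (+ strand): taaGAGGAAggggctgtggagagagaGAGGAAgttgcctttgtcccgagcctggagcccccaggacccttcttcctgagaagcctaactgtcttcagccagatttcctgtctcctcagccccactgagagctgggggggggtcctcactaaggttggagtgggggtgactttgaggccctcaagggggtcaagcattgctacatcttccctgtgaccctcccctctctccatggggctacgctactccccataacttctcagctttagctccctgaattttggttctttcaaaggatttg
Elane chr10:79886062-79886361 (+ strand): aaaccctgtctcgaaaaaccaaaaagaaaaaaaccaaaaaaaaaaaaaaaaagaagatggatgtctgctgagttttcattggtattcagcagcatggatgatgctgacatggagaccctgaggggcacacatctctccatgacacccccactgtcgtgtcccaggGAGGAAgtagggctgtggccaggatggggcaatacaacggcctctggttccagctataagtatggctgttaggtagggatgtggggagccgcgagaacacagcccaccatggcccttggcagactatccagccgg
Prtn3 chr10:79879417-79879716 (+ strand): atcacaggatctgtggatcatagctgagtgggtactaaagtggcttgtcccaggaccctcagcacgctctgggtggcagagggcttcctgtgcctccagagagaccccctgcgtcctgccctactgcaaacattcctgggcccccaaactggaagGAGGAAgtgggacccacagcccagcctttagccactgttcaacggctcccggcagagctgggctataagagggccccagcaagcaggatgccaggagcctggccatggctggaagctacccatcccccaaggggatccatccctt
Ctsg chr14:56102525-56102824 (- strand): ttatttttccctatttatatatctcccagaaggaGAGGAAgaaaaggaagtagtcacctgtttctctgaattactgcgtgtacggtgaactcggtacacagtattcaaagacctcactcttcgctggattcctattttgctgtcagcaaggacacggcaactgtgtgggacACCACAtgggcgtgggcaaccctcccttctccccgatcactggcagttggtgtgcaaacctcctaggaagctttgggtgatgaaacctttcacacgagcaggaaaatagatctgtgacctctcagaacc
Ms4a3 chr19:11640802-11641101 (- strand): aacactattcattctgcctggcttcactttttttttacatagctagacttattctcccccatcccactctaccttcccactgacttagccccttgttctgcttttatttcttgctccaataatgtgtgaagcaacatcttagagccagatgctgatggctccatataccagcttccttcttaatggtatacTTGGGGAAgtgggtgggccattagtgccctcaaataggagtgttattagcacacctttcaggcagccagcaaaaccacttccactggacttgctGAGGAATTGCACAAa
Ltf chr9:111019042-111019341 (+ strand): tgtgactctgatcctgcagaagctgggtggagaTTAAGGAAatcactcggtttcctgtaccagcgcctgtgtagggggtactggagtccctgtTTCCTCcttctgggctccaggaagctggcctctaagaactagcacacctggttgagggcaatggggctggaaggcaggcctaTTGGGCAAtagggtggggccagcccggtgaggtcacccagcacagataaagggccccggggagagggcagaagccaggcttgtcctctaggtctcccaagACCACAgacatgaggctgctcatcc
S100a9 chr3:90695672-90695971 (- strand): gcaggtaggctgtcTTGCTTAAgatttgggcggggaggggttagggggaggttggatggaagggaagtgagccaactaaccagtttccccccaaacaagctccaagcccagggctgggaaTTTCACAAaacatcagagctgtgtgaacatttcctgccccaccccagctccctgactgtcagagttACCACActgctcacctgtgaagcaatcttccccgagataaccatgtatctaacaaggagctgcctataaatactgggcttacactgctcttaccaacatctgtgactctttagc

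All 5 primary class windows held a PU.1 match, and so did Ltf and S100a8, which makes 7 of 10 members against 28.3% of all 32851 windows of this length. In Elane the match starts at position -85 from the annotated start and in Prtn3 at -95. No C/EBP match was found in the windows of Mpo, Elane, Prtn3, Ctsg and Camp. The other 5 members held 1 to 3 such matches, against 40.7% of all windows, and in Ms4a3 the match at position 42 abuts the PU.1 match at 36. RUNX matches lay in 3 members (Ctsg, Ltf, S100a9) against 16.8% of all windows, and MYB matches in 8 against 80.3%. The matches describe letters in these windows and were not compared with binding data. Elane and Prtn3 are also neighbours, 3073 bases apart on the + strand of chromosome 10, and S100a8 and S100a9 lie 22597 bases apart on chromosome 3 in opposite directions.

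Mpo, which makes hypochlorous acid in the primary granule, had the highest mean level per length of transcript of the members at 0 h. Its counts then were 416, 317 and 470 in WT 1, 3 and 4 and 3750, 1730 and 2251 in Aim2-/- 1, 2 and 4. On the CPM scale the means were 20.3 ± 3.75 (SD, n = 3) in WT and 125.9 ± 49.9 (SD, n = 3) in Aim2-/- libraries. The lowest Aim2-/- library was above the highest WT library at every time point, and the ratio of the means was 6.19 in unstimulated cells and then 5.30, 5.58 and 8.99 at the 3 later times. Without the mouse labelled WT 1 the ratio was 6.26 at 0 h, and without Aim2-/- 1 it was 4.82. An antisense transcript, Gm11505, overlaps exons of Mpo, and whether the counting used the strand is not stated.

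The 3 serine proteases of the primary granule had the same order of libraries at 0 h in the Aim2-/- mice, with mouse 1 highest and mouse 2 lowest. Elane stood at 90, 56 and 60 counts in the WT libraries and at 633, 268 and 338 counts in the Aim2-/- libraries. Prtn3 had 97, 85 and 70 counts in WT against 872, 317 and 537 counts in Aim2-/- libraries. Ctsg had 47, 55 and 41 counts in WT against 551, 211 and 374 counts in Aim2-/- libraries. The WT libraries of all 3 genes lay close together at 0 h, and the groups did not overlap at any time point. Ratios of mean CPM at 0 h were 5.80 for Elane, 6.59 for Prtn3 and 7.63 for Ctsg, and at 24 h they were 8.98, 11.0 and 14.0. Exons of Prtn3 overlap Plppr3 on the other strand.

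Ms4a3, a membrane protein of the MS4A family that marks granulocyte-monocyte progenitors, was the scarcest primary class member, with 11, 11 and 13 counts at 0 h in WT and 149, 61 and 86 in Aim2-/- libraries. Slpi encodes a secreted inhibitor of elastase and cathepsin G and is made by epithelia as well as myeloid cells. It had 69, 53 and 68 counts in WT and 769, 326 and 501 counts in Aim2-/- libraries at 0 h. Neither gene overlapped between genotypes at any time, and the ratios at 0 h were 8.13 for Ms4a3 and 8.09 for Slpi. For the 5 primary class members and Slpi, the ratio over the 4 time points ran from 5.30 to 14.0. Without the mouse labelled WT 1 it ran from 6.07 to 14.5, and without Aim2-/- 1 from 2.99 to 7.44, and the summed primary class stayed higher in the Aim2-/- libraries without each of the 6 mice in turn. At 0 h the mouse labelled WT 1 had Aim2 levels near those of the Aim2-/- mice but levels of these 6 genes near those of WT 3 and WT 4. At 3 h it was the highest WT mouse for Slpi, at 4.86 CPM against 1.84 and 1.64 CPM in WT 3 and WT 4. The same held for Prtn3 (5.05 against 2.46 and 1.87 CPM) and Elane (3.61 against 1.56 and 1.96 CPM).

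**Figure D1:**
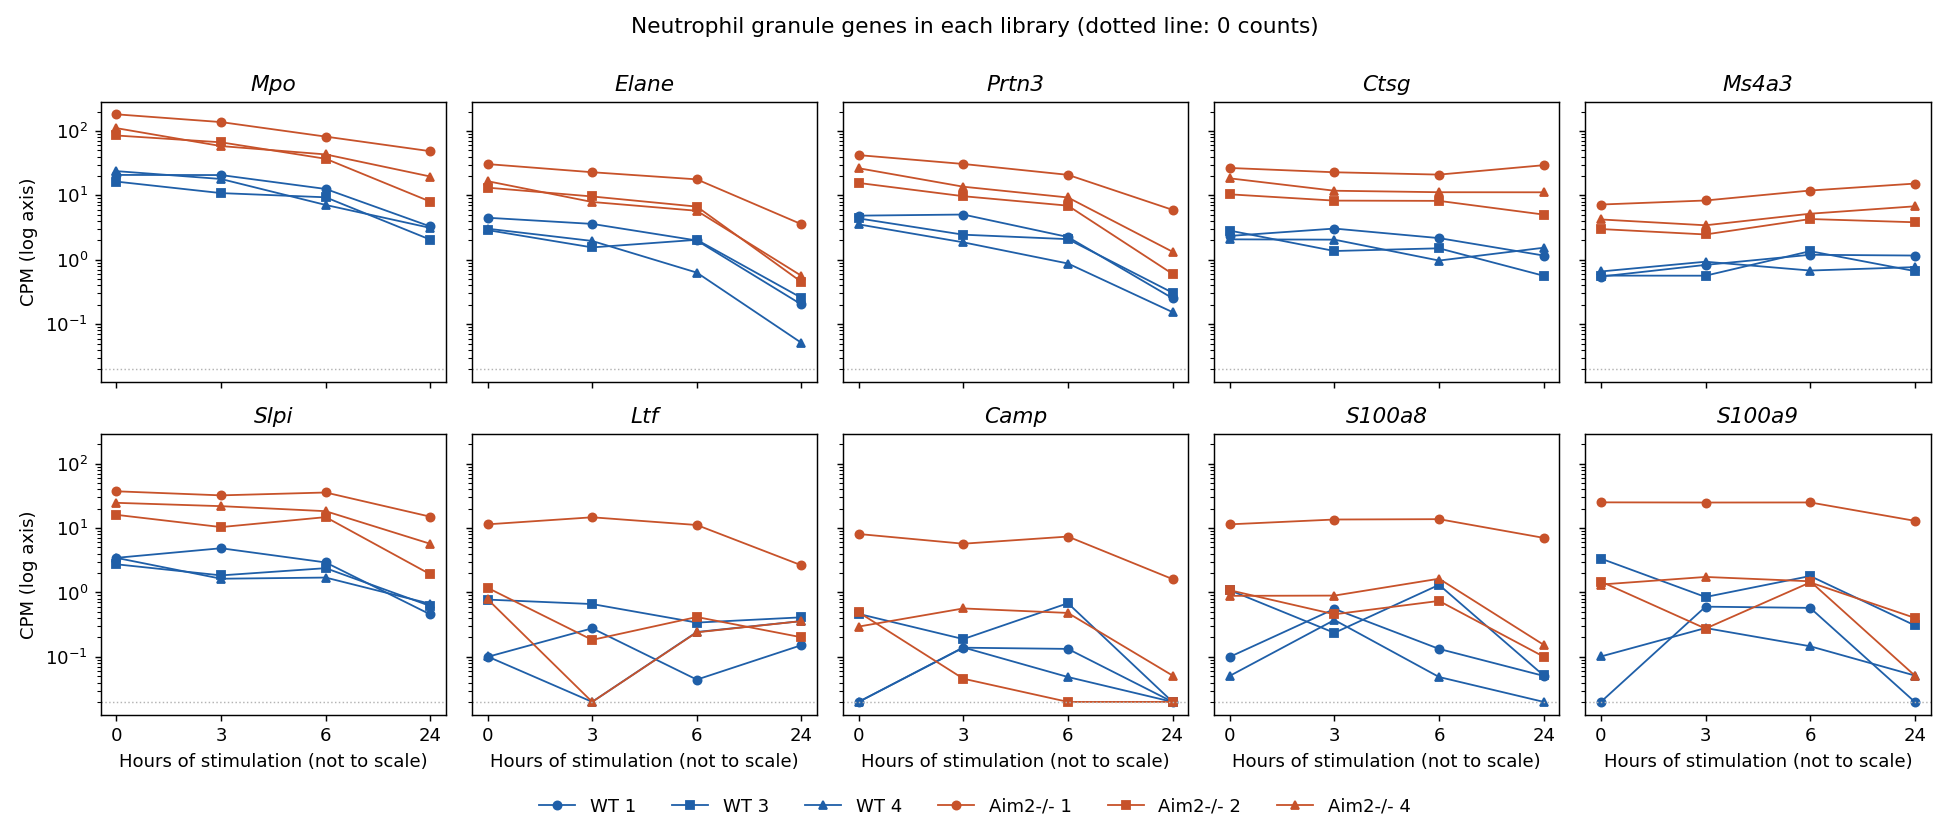
CPM of each of the 10 members (log axis) against hours of stimulation (not to scale), with 1 line per mouse, blue for WT and orange for Aim2-/-, and libraries with 0 counts drawn on the dotted line. In Mpo, Elane, Prtn3, Ctsg, Ms4a3 and Slpi all orange lines lie above all blue lines, and in Ltf, Camp, S100a8 and S100a9 1 orange line, Aim2-/- 1, lies apart from the other 5.

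The secondary class had another distribution over the mice. Ltf, the iron-binding protein of specific granules, had 2, 15 and 2 counts at 0 h in WT 1, 3 and 4 and 236, 24 and 16 counts in Aim2-/- 1, 2 and 4. Camp, whose product is cut to an antimicrobial peptide by serine proteases, had 0, 9 and 0 counts against 167, 10 and 6 counts. One mouse, Aim2-/- 1, carried most of the counts of both genes. The calprotectin subunits had the same pattern, with 2, 21 and 1 counts of S100a8 in WT against 236, 22 and 18 counts in Aim2-/- libraries. For S100a9 the values were 0, 65 and 2 counts against 518, 30 and 27 counts. WT 3 had more counts of all 4 genes at 0 h than WT 1 and WT 4, and for S100a9 more than Aim2-/- 2 and 4.

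The mean CPM of these genes was therefore higher in the Aim2-/- group with a large spread, for example 9.30 ± 13.7 (SD, n = 3) against 1.15 ± 1.91 (SD, n = 3) for S100a9 at 0 h. Ratios of the means at 0 h were 13.7 for Ltf, 19.1 for Camp, 10.8 for S100a8 and 8.06 for S100a9. Without the mouse labelled WT 1 these ratios were 10.2, 12.7, 7.86 and 5.37, and without Aim2-/- 1 they were 3.02, 2.54, 2.39 and 1.22. At 3 h the ratio for Ltf without Aim2-/- 1 was 0.293, where 4 and 0 counts in Aim2-/- 2 and 4 stood beside 6, 14 and 0 counts in WT. Without Aim2-/- 1 the ratio was also below 1 for Camp at 6 h, at 0.836, and for Ltf at 24 h, at 0.912. At 24 h Camp had 0 counts in all 3 WT libraries and 33, 0 and 1 counts in the Aim2-/- libraries, and S100a8 had 1, 1 and 0 counts against 144, 2 and 3, so no ratio is given. The excess of Aim2-/- 1 over the mean of the other two Aim2-/- mice ran from 9.42 to 160 for the secondary class and from 1.83 to 7.02 for the primary class and Slpi over the 4 time points, where the value of 160 (Ltf at 3 h) rests on 4 and 0 counts in the others. In bulk libraries such as these, fewer cells of a type and less RNA per cell cannot be told apart.

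All 3 Aim2-/- libraries lay above all 3 WT libraries for 7 of 10 members in unstimulated cells and for 6, 6 and 7 members at the 3 later times. Among all 15325 genes tested the shares were 14.1% without stimulation, then 7.8%, 18.6% and 11.1%. The members were chosen on this difference, so nothing is read from the counts. Camp and S100a9 overlapped between genotypes at every time point, S100a8 overlapped at 0, 3 and 6 h, and Ltf at 3, 6 and 24 h.

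Summed over the class, primary class counts were 661, 524 and 654 in the WT libraries at 0 h and 5955, 2587 and 3586 in the Aim2-/- libraries. Secondary class counts were 4, 110 and 5 in WT and 1157, 86 and 67 in Aim2-/- libraries. The quotient of primary over secondary counts was 165 in WT 1, 4.76 in WT 3 and 131 in WT 4, and 5.15 in Aim2-/- 1, 30.1 in Aim2-/- 2 and 53.5 in Aim2-/- 4. WT 3 had the lowest quotient of the WT mice and Aim2-/- 1 the lowest of the Aim2-/- mice at each of the 4 time points. On the log2 scale the quotient averaged 5.55 ± 2.86 (SD, n = 3) in WT and 4.34 ± 1.76 (SD, n = 3) in Aim2-/- libraries at 0 h, and 3.67 ± 1.30 and 4.25 ± 1.99 at 24 h, so the genotypes differed by less than the spread between mice. The quotients that rest on 4 or 5 secondary class counts are imprecise.

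**Figure D2:**
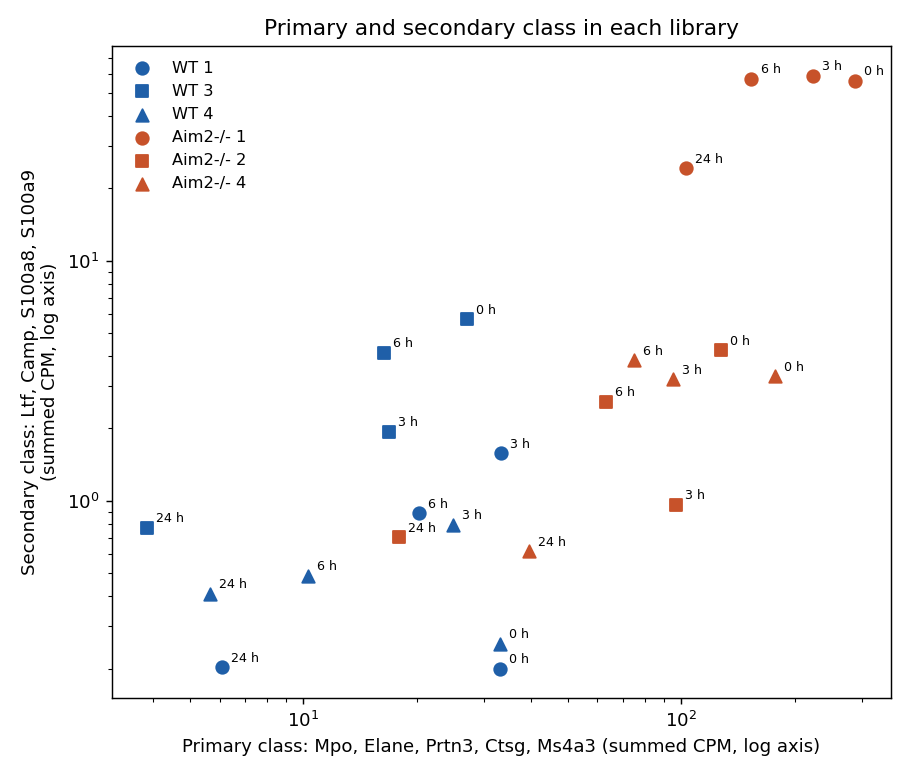
Summed CPM of the secondary class against summed CPM of the primary class, both on log axes, with 1 point per library labelled with its hour, blue for WT and orange for Aim2-/-. Genotypes separate along the horizontal axis at each time point, while on the vertical axis Aim2-/- 1 stands at 24.3 to 58.9 CPM and all other libraries at or below 5.69 CPM.

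Levels of different genes were compared per kilobase of annotated exon (CPM per kb, all isoforms merged). In the Aim2-/- libraries at 0 h the order of means was Mpo at 36.8 ± 14.6, Slpi at 22.0 ± 9.03, Elane at 20.5 ± 9.40, Ctsg at 17.9 ± 7.89, S100a9 at 17.8 ± 26.2 and Prtn3 at 16.2 ± 7.73 CPM per kb (SD, n = 3). S100a8 at 6.44 ± 8.69, Camp at 3.90 ± 5.86, Ms4a3 at 2.56 ± 1.15 and Ltf at 1.30 ± 1.75 CPM per kb followed. The ranges of mean ± SD overlapped between all neighbours in this order, and these SDs hold the differences between mice. Within each Aim2-/- library Mpo was above Slpi, at 53.0 against 31.6 in mouse 1, 24.9 against 13.6 in mouse 2 and 32.4 against 20.9 CPM per kb in mouse 4. In WT libraries Mpo at 5.94 ± 1.09 CPM per kb stood clear of the next gene, Elane at 3.54 ± 0.902 CPM per kb. All later neighbours were within their SDs, down to Camp at 0.205 ± 0.354 and Ltf at 0.0944 ± 0.113 CPM per kb.

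The change with stimulation was not used to choose the members and was tested in each genotype against its own 0 h libraries with the edgeR quasi-likelihood F test over all 15325 genes. Members of the primary class parted ways. In the fit that leaves out the pairing of libraries by mouse, Elane, Prtn3, Mpo and Slpi fell by 24 h in both genotypes. Ctsg did not pass that test in either genotype, and Ms4a3 had positive estimates in both. With the mouse as a block in the edgeR fit, Ctsg was lower in WT cells at 24 h (adjusted p = 0.00433). Without the block 4 of 10 members were lower at 24 h in WT cells and 4 in Aim2-/- cells, and none was higher. The background among all genes was 34.8% lower and 36.6% higher in WT cells and 33.5% and 36.8% in Aim2-/- cells. With the block 8 of 10 members were lower in each genotype, against 37.7% of all genes in WT and 36.8% in Aim2-/- cells. Ms4a3 was then higher in Aim2-/- cells. The 8 in WT cells take in Camp, which passed the filter on low counts only through the Aim2-/- libraries. The median log2 fold change of the members without the block was -3.02 in WT and -1.92 in Aim2-/- cells, against -0.01 and 0.03 over all genes tested. The WT median takes in Camp, S100a8 and S100a9, at -4.72 (SE 4.49), -3.37 (SE 2.71) and -3.20 (SE 2.42). Those estimates rest on few counts, most of them in WT 3, so the median is imprecise.

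Elane had the largest fitted fall of the members that passed the test in both genotypes. At 24 h its counts were 4, 5 and 1 in WT 1, 3 and 4, and 73, 9 and 11 in Aim2-/- 1, 2 and 4. The log2 fold change was -4.31 (SE 0.876, adjusted p = 0.00017) in WT and -3.71 (SE 0.673, adjusted p = 5.11e-05) in Aim2-/- cells. Every 24 h library was below every 0 h library of its genotype. Its neighbour Prtn3 had 5, 6 and 3 counts in WT and 122, 12 and 26 counts in Aim2-/- libraries at 24 h, so that its fold changes were close to those of Elane, at -4.13 (SE 0.847, adjusted p = 0.000187) in WT and -3.41 (SE 0.647, adjusted p = 8.56e-05) in Aim2-/- cells on the log2 scale.

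Mpo had 65, 40 and 61 counts in WT and 993, 159 and 383 counts in Aim2-/- libraries at 24 h, all below the 0 h libraries of their genotype. Its log2 fold change was -2.84 (SE 0.556, adjusted p = 0.000109) in WT and -2.31 (SE 0.477, adjusted p = 0.000214) in Aim2-/- cells. Slpi, with 9, 12 and 13 counts in WT and 307, 38 and 111 counts in Aim2-/- libraries, changed by -2.46 (SE 0.699, adjusted p = 0.00363) and -1.78 (SE 0.542, adjusted p = 0.00621) on the log2 scale. The Slpi call was lost in WT cells with limma-voom (adjusted p = 0.0926) and in Aim2-/- cells without Aim2-/- 4 (adjusted p = 0.0607). The other 24 h calls of these 4 genes held without each mouse in turn, including without the mouse labelled WT 1.

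Ctsg was retained more than its fellow proteases. Its counts at 24 h were 23, 11 and 30 in WT and 602, 100 and 218 in Aim2-/- libraries, and in the latter they overlapped with the 551, 211 and 374 counts at 0 h. The log2 fold change was -1.15 (SE 0.618, adjusted p = 0.103) in WT and -0.28 (SE 0.51, adjusted p = 0.635) in Aim2-/- cells. For Ms4a3, with 23, 13 and 15 counts in WT and 312, 76 and 132 counts in Aim2-/- libraries at 24 h, the estimate was 0.55 (SE 0.605, adjusted p = 0.429) in WT and 0.84 (SE 0.487, adjusted p = 0.13) in Aim2-/- cells.

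Each mouse was also compared with its own 0 h library. At 24 h Elane stood at 1.69% to 11.6% of the 0 h CPM of the same mouse (median 3.97%, 6 mice), Prtn3 at 3.87% to 14.1% (median 5.13%) and Mpo at 9.4% to 26.7% (median 14.4%). Slpi stood at 11.9% to 40.3% (median 20.9%) and Ctsg at 19.9% to 110% (median 55.2%). Ms4a3 was above its 0 h level in all 6 mice, at 117% to 212% (median 144%). Aim2-/- 1 kept the highest percentage of Mpo, Elane, Prtn3, Ctsg and Slpi.

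**Figure D3:**
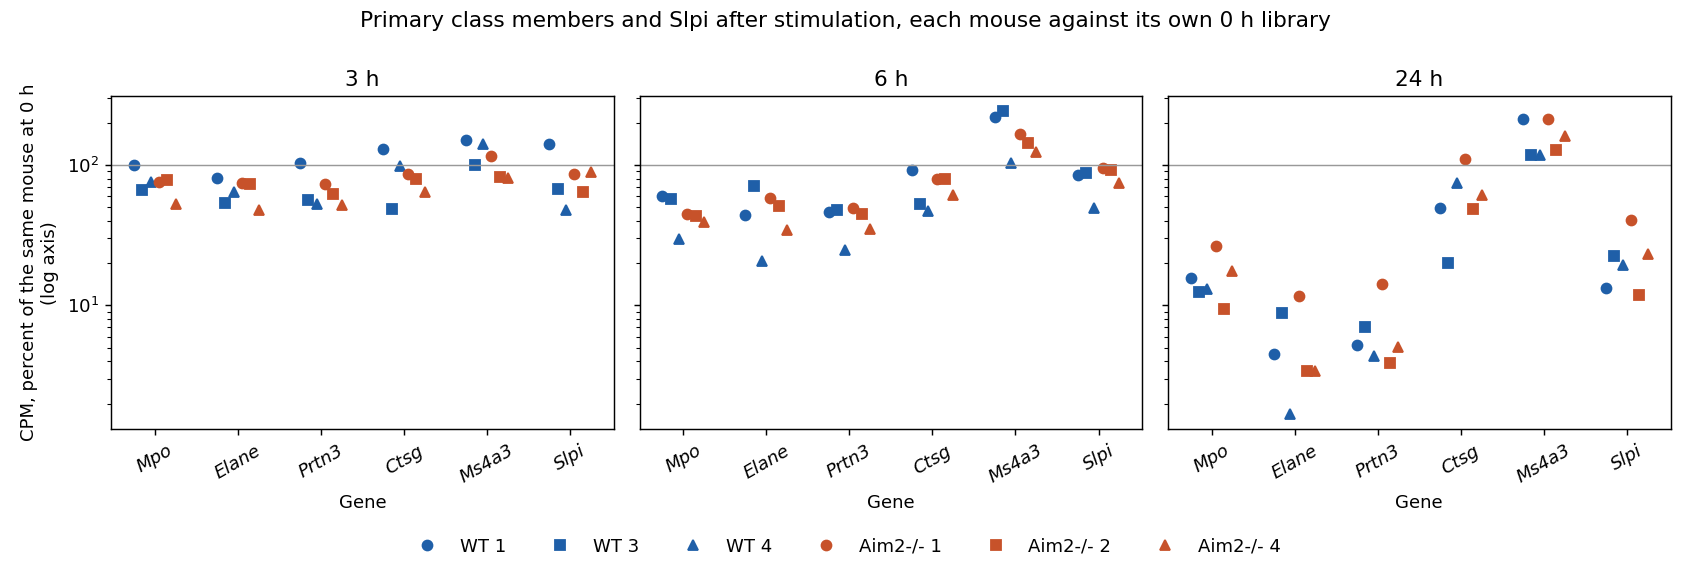
CPM of the 5 primary class members and Slpi at 3, 6 and 24 h as a percentage of the same mouse at 0 h (log axis), with 1 point per mouse, blue for WT and orange for Aim2-/-, and a line at 100%. At 24 h the medians run from 3.97% for Elane over 14.4% for Mpo and 55.2% for Ctsg to 144% for Ms4a3, with both genotypes intermixed.

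The order within the primary class was tested as the change, from 0 to 24 h, of the log2 ratio of 2 genes in the same library, with 0.5 counts added to each, by an exact sign-flip test over the 6 mice (two-sided). This comparison was chosen after seeing the data. In 9 of the 10 pairs all 6 mice changed in the same direction, which gives p = 0.03125, the smallest value that 6 mice allow in this exact test (adjusted p = 0.03472 over 10 pairs). Mpo rose relative to Elane by 1.56 ± 0.753 and relative to Prtn3 by 1.26 ± 0.382 on the log2 scale (SD, n = 6). The ratio of Prtn3 to Ctsg fell by 3.10 ± 0.876, and that of Ctsg to Ms4a3 fell by 1.48 ± 0.689 (SD, n = 6). Elane and Prtn3 were the pair without such a difference, with a change in their ratio of -0.30 ± 0.451, between -1.0 and 0.36 (SD, n = 6, exact p = 0.1875, adjusted p = 0.1875). The order over the 6 mice was Elane with Prtn3, Mpo, Ctsg and Ms4a3, from the greatest loss to none.

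Over 3 and 6 h the changes were smaller. At 3 h no member passed the edgeR test in either genotype, nor did any at an unadjusted p under 0.05 or by DESeq2 or limma-voom, against 16.4% of all genes lower and 16.2% higher in WT and 14.6% and 16.1% in Aim2-/- cells. Mpo at 6 h was the 1 early call, lower in Aim2-/- cells (log2 fold change -1.22, SE 0.457, adjusted p = 0.031), where 22.7% of all genes were lower and 28.5% higher. Its counts were 1863, 802 and 900 at 6 h, and the call was lost without Aim2-/- 4 (adjusted p = 0.132), where 0 members remained called, while 3 were called without Aim2-/- 1. In WT cells at 6 h no member passed, with 24.8% of all genes lower and 26.4% higher, and Mpo changed by -1.07 (SE 0.49, adjusted p = 0.075), the 1 member with an unadjusted p under 0.05. That count of 0 in WT cells became 4 without Aim2-/- 1 and 1 without Aim2-/- 2, mice that enter it through the shared estimate of the spread. Shares of all genes called without a mouse are not given here, so nothing is read from these counts.

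Because the 4 libraries of a mouse deviated together, the fit with the mouse as a block was compared beside the unblocked one. With the block, Mpo, Elane and Prtn3 were lower in Aim2-/- cells at 3 h, with log2 fold changes of -0.55, -0.66 and -0.71 (adjusted p = 0.0324, 0.0309 and 0.00897), where 20.3% of all genes were called lower. The same 3 genes were lower at 6 h in WT cells, with log2 fold changes of -1.07, -1.18 and -1.33 (adjusted p = 0.000502, 0.00296 and 0.000312), and in Aim2-/- cells, with -1.24, -1.11 and -1.25 (adjusted p = 2.07e-05, 0.000491 and 3.16e-05). Background shares of lower genes were then 29.1% in WT and 27.1% in Aim2-/- cells. Ms4a3 rose at 6 h under the block in both genotypes, by 0.86 in WT (SE 0.312, adjusted p = 0.0228) and 0.52 in Aim2-/- cells (SE 0.203, adjusted p = 0.0321), with 30.1% and 32.9% of all genes higher. At 24 h it was higher in Aim2-/- cells (log2 fold change 0.73, SE 0.202, adjusted p = 0.0026, with 39% of all genes higher) and not called in WT cells (0.54, SE 0.327, adjusted p = 0.141). Ctsg was lower with the block in WT cells at 24 h (-1.17, SE 0.344, adjusted p = 0.00433) and not called in Aim2-/- cells (-0.47, SE 0.225, adjusted p = 0.065).

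**Figure D4:**
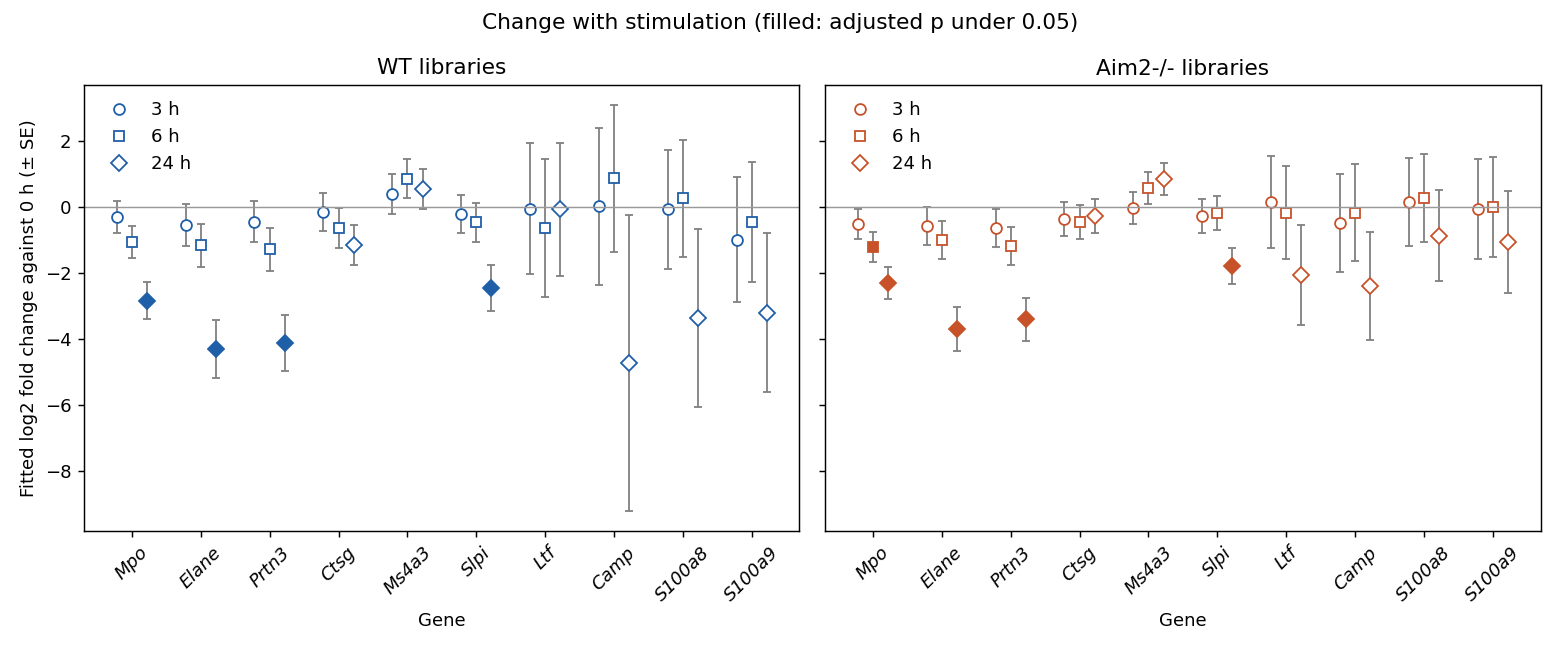
Fitted log2 fold change of each member against 0 h without the mouse block, with its SE, for WT (left) and Aim2-/- libraries (right), by hour, with filled symbols where the adjusted p was under 0.05. Filled symbols are Mpo, Elane, Prtn3 and Slpi at 24 h in both genotypes and Mpo at 6 h in Aim2-/- cells. The wide bars are those of Ltf, Camp, S100a8 and S100a9, whose counts were low in most WT libraries and differed widely between Aim2-/- mice. All WT libraries had 0 counts of Camp at 24 h. For S100a9 at 24 h in Aim2-/- cells the SE was 1.55, and with the mouse block it was 0.509.

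The secondary class members did not pass the unblocked test at any time point. Their counts in WT were close to 0 except in WT 3, so their course can be read in Aim2-/- 1 above all. In that mouse S100a9 had 518 counts before stimulation and 580, 569 and 265 counts after it. S100a8 had 236, 316, 313 and 144 counts, Ltf 236, 342, 254 and 54, and Camp 167, 133, 168 and 33 counts in the same order. Levels at 6 h stood between 91.3% and 120% of the 0 h CPM for the 4 genes in this mouse. Mpo then stood at 45.1%, Prtn3 at 49.4%, Elane at 57.9%, Ctsg at 78.9%, Slpi at 95.8% and Ms4a3 at 165%, so that the classes overlapped. By 24 h S100a8 was at 61.6%, S100a9 at 51.7%, Ltf at 23.1% and Camp at 20%. These are the values of 1 mouse and were not tested.

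With the mouse as a block, 8 of 10 members were lower in WT cells at 24 h, where 37.7% of all genes were, and 8 of 10 in Aim2-/- cells, where 36.8% were. The calls added in Aim2-/- cells were all 4 secondary class members, with log2 fold changes of -2.24 for Ltf (adjusted p = 0.00475), -2.61 for Camp (adjusted p = 0.00162), -1.33 for S100a8 (adjusted p = 0.023) and -1.41 for S100a9 (adjusted p = 0.0163). In WT cells S100a9 was lower (log2 fold change -3.00, adjusted p = 0.00818), and S100a8 and Camp were also called, but the latter rest on 21 and 9 counts in WT 3 at 0 h against 1 and 0 at 24 h. Ltf, with 2, 15 and 2 counts at 0 h and 3, 8 and 7 at 24 h, was not called in WT cells (adjusted p = 0.963). Camp and Ltf passed the filter on low counts only through the Aim2-/- libraries, so nothing is read from their WT results.

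Whether stimulation acted differently in the genotypes was tested as an interaction. No member passed at 3, 6 or 24 h, with or without the block, nor with DESeq2 or limma-voom, and no member had an unadjusted p under 0.05 in the unblocked fit. Over all genes 0%, 0.0261% and 0% were called at the 3 times without the block (653, 2019 and 1825 genes at an unadjusted p under 0.05), and 0.0587%, 4.68% and 2.77% with it (9, 717 and 424 genes). At 24 h the estimate was 0.54 (SE 0.716) for Mpo, 0.60 (SE 1.10) for Elane, 0.72 (SE 1.07) for Prtn3 and 0.87 (SE 0.80) for Ctsg on the log2 scale, all toward a smaller loss in Aim2-/- cells and all within about 1 SE of 0. With the block the estimate for Mpo was 0.37 (SE 0.359, adjusted p = 0.596).

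Slpi varied over the libraries as the primary class did. Its log2 CPM had a Pearson r of 0.983 with the mean log2 CPM of the primary class and of 0.744 with that of the secondary class. The 24 libraries share mice, genotype and time. The genotype difference that chose the members enters this r and those below, so nothing is read from them. Within the Aim2-/- mice Slpi stood at 74.1% to 95.8% of its 0 h CPM at 6 h. Mpo then stood at 39.1% to 45.1% and Ms4a3 at 123% to 165%. Outside the set, the genes most like the primary class were Mzb1, Blnk, Ly6c2, Hp, Clec12a, Alox5ap, Anxa1 and Spi1, with r from 0.948 to 0.973 among 11104 genes with a mean of at least 1 CPM. Mzb1 and Blnk are genes of plasma and B cells, Hp encodes haptoglobin, and Spi1 encodes PU.1. Among those most like the secondary class were Ngp, Lcn2, Itgam, Chil3, Csf2ra, Lat2 and Ctsh, with r from 0.867 to 0.972. Ngp and Lcn2 are secondary granule genes of neutrophils.

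Ngp, which encodes a secondary granule protein of mouse neutrophils, followed the secondary class mouse by mouse. At 0 h it stood at 0, 1.76 and 0 CPM in WT 1, 3 and 4 and at 20.8, 1.08 and 0.935 CPM in Aim2-/- 1, 2 and 4. Of the list of other secondary and tertiary granule genes, 11 of 12 were tested. At 24 h 5 were lower and 1 higher in WT cells and 3 lower and 1 higher in Aim2-/- cells, and with the block 8 were lower and 1 higher in each. Of all genes 34.8% were lower and 36.6% higher in WT and 33.5% and 36.8% in Aim2-/- cells. With the block 37.7% of all genes were lower in WT and 36.8% in Aim2-/- cells. Cybb, the catalytic subunit of the phagocyte oxidase, fell by 2.54 in WT (SE 0.625, adjusted p = 0.0011) and by 1.51 in Aim2-/- cells (SE 0.562, adjusted p = 0.0216). Cyba, its partner subunit and widely expressed, was the gene that rose, by 0.63 (adjusted p = 4.46e-05) and 0.67 (adjusted p = 2.14e-05). Ngp changed by -3.87 (SE 3.30, adjusted p = 0.301) and -1.76 (SE 1.67, adjusted p = 0.354), with the block -2.21 in Aim2-/- cells (adjusted p = 0.000383). Chil3, a chitinase-like secreted protein, changed by -2.96 (adjusted p = 0.0561) and -1.61 (adjusted p = 0.155).

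Of the other primary granule and processing genes, 9 of 10 were tested, and at 24 h 2 were lower and 2 higher in WT cells and 3 lower and 2 higher in Aim2-/- cells. With the block these were 4 lower and 3 higher, and 4 and 4. The shares of all genes without the block were 34.8% lower and 36.6% higher in WT and 33.5% and 36.8% in Aim2-/- cells. With it 37.7% of all genes were lower in WT and 36.8% in Aim2-/- cells. Srgn, the proteoglycan that packs granule proteases and is also made by T cells, fell by 1.46 in WT (SE 0.118, adjusted p = 4.35e-10) and by 1.40 in Aim2-/- cells (SE 0.117, adjusted p = 1.02e-09) on the log2 scale. Gusb, a lysosomal glycosidase, rose by 2.62 (adjusted p = 5.24e-14) and 2.07 (adjusted p = 1.25e-12). Ctsc, which activates the granule serine proteases by trimming their N terminus, rose by 0.49 in WT (SE 0.094, adjusted p = 8.71e-05) and 0.23 in Aim2-/- cells (SE 0.0937, adjusted p = 0.035). Plac8 did not pass the test in either genotype, and with the block was higher by 0.41 in Aim2-/- cells (adjusted p = 0.00424).

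The list of granulopoiesis transcription factors and receptors had 12 of 13 genes tested. At 24 h 7 were lower and 1 higher in WT cells and 8 lower and 1 higher in Aim2-/- cells, where 34.8% and 33.5% of all genes were lower. With the block 9 were lower in WT cells and 10 in Aim2-/- cells, against 37.7% and 36.8% of all genes. Gfi1, a repressor that acts in both granulocyte precursors and T cells, rose by 2.20 (adjusted p = 4.6e-08) and 2.11 (adjusted p = 9.27e-08). Myb fell by 3.38 (adjusted p = 4.06e-09) and by 2.22 (adjusted p = 1.08e-06), Runx1 fell by 0.86 (adjusted p = 7.03e-07) and by 0.69 (adjusted p = 1.56e-05), and Kit, the stem cell factor receptor, fell by 2.12 (adjusted p = 0.000288) and by 1.61 (adjusted p = 0.00223). Myb and Runx1 are also expressed in T cells, at 309 and 124 CPM in WT libraries at 0 h.

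Mature neutrophil genes were scarce, and 8 of 12 were tested. At 24 h 4 were lower and 1 higher in WT cells and 2 lower and 1 higher in Aim2-/- cells, and with the block 5 lower in WT and 4 in Aim2-/- cells. Beside these counts, 34.8% of all genes were lower and 36.6% higher in WT and 33.5% and 36.8% in Aim2-/- cells. The shares lower with the block were 37.7% and 36.8%. Il1b changed by -1.27 (adjusted p = 0.127) and -1.33 (adjusted p = 0.0722), both called with the block (adjusted p = 0.0468 and 0.00268). Csf3r, the G-CSF receptor, was lower in WT cells (-3.42, SE 1.41, adjusted p = 0.0354) from a mean of 0.426 CPM, and the estimate in Aim2-/- cells was -0.91 (SE 0.782, adjusted p = 0.305, with the block -1.15, adjusted p = 0.0273). Cxcl2, a neutrophil chemoattractant, fell by 1.59 in WT cells (adjusted p = 0.0137) and was not called in Aim2-/- cells (-0.71, adjusted p = 0.148). Clec4d did not pass in either genotype.

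Among the protease inhibitors and small secreted myeloid genes, 7 of 10 were tested, with 2 higher and 2 lower at 24 h in each genotype, and with the block 3 lower in WT and 4 in Aim2-/- cells. Over all genes 34.8% were lower and 36.6% higher in WT and 33.5% and 36.8% in Aim2-/- cells. The shares lower with the block were 37.7% and 36.8%. The genes that rose were Serpina3g and Cst7, an inhibitor of cysteine proteases, both also expressed by activated T cells. Cst7 rose by 3.16 in WT (SE 0.175, adjusted p = 1.57e-12) and 2.10 in Aim2-/- cells (SE 0.165, adjusted p = 3.84e-10), and Serpina3g by 2.29 (adjusted p = 1.93e-05) and 2.50 (adjusted p = 6.11e-06). Serpinb1a, an inhibitor of elastase, cathepsin G and proteinase 3, fell by 1.49 in WT cells (SE 0.451, adjusted p = 0.00588), and in Aim2-/- cells its estimate was -0.60 (SE 0.416, adjusted p = 0.202, with the block -0.69, adjusted p = 0.00109). Anxa1 changed by -1.86 in WT (adjusted p = 0.00931) and -1.18 in Aim2-/- cells (adjusted p = 0.0517, with the block -1.24, adjusted p = 9.96e-07).

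Markers of several other cell types were higher in the Aim2-/- libraries along with the members, and their part in the results was not tested. At 0 h the neutrophil markers (10 of 10 with over 3 counts in some library) summed to between 2.65 and 7.55 CPM in WT and between 7.44 and 42.5 CPM in Aim2-/- libraries. Ly6g, the defining surface marker of mouse neutrophils, stood at 0 counts in all 3 WT libraries at 0 h. It was at no more than 0.344 CPM in any library, and Cebpe, a regulator of secondary granule genes, was at most 0.823 CPM. The 4 genes of highest mean CPM in the list were more abundant. In Aim2-/- 1 at 0 h Ngp stood at 20.8, Mmp9 at 7.17, Lcn2 at 4.94 and Csf3r at 3.58 CPM. Mmp9 held much of the WT sum, at 1.95, 3.20 and 5.88 CPM in WT 1, 3 and 4. Markers of granulocyte-monocyte progenitors (8 of 8) summed to between 104 and 114 CPM in WT and between 127 and 254 CPM in Aim2-/- libraries, although Gfi1 and Plac8 hold much of this sum. Basophil and mast cell markers (11 of 11) summed to between 73.2 and 90.7 CPM against 163 to 318 CPM, eosinophil markers (5 of 6, without Ear1) to between 2.43 and 3.40 CPM against 10.8 to 22.2 CPM, and monocyte and macrophage markers (11 of 11) to between 84.9 and 107 CPM against 203 to 516 CPM. The genotypes overlapped in the neutrophil sum and not in the other 4.

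Beyond the myeloid lists, B cell and plasma cell markers (8 of 8) summed to between 44.5 and 172 CPM in WT and between 396 and 796 CPM in Aim2-/- libraries at 0 h, and megakaryocyte and platelet markers (5 of 5) to between 11.4 and 20.6 CPM against 28.7 to 47.7 CPM. Dendritic cell markers (7 of 7) stood at 18.2 to 25.4 CPM against 27.5 to 68.9 CPM. Erythroid markers (9 of 9) at 42.9 to 99 CPM against 56.8 to 466 CPM, and NK and CD8 T cell markers (6 of 6) at 30.9 to 43.4 CPM against 32.1 to 60.8 CPM, overlapped between the genotypes. Mpo, Elane, Prtn3 and Slpi were lower at 24 h, where 34.8% of all genes in WT and 33.5% in Aim2-/- cells were lower. The marker lists did not all exceed these shares. Of the monocyte and macrophage markers 8 of 11 were called lower in WT and 9 of 11 in Aim2-/- cells, and of the CD4 T cell markers 6 of 7 in both genotypes. Markers of granulocyte-monocyte progenitors were lower in 3 and 5 of 7 tested and those of dendritic cells in 3 and 4 of 6. Those of neutrophils, in 3 and 2 of 7, and of B and plasma cells, in 3 and 4 of 8, stayed nearer these shares. Of 9 erythroid markers 0 were lower in either genotype, and 1 was higher in Aim2-/- cells. In each genotype 1 of 4 eosinophil, 2 of 6 NK and CD8 T cell and 2 of 4 megakaryocyte and platelet markers were lower. In Aim2-/- cells 1, 2 and 1 of these were higher. Basophil and mast cell markers did not move as 1 group, with 2 higher and 3 lower in WT and 4 higher and 2 lower in Aim2-/- cells. The shares of all genes called higher were 36.6% in WT and 36.8% in Aim2-/- cells.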

How the data were processed

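Stranded mRNA libraries (TruSeq, sequenced from 1 end) were made from CD4+ T cells by the authors, who aligned the reads with STAR to GRCm38 and deposited raw read counts per gene, not normalized. The strand setting of the counting and the STAR version are not given in the sources used here, and the RNA sequencing methods of the study are general rather than specific to this time course. The submitters' processing notes also name edgeR and DESeq2. No deposited fold changes were used. GENCODE positions matched 54409 of the 54446 identifiers.

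Members and lists were chosen with earlier results of these data known. CPM used library totals (19715161 to 21627018 counts) multiplied by their TMM factors, and 3 counts per library are the floor of detection, covering counting error only. The main test was edgeR 4.0.16 (R 4.3.3), a two-sided quasi-likelihood F test with TMM factors, 1 mean per group over 24 libraries, filterByExpr (minimum count 10, 15325 genes kept) and Benjamini-Hochberg adjustment, called at 0.05. The script was tested on simulated data. Alternatives were RLE and no scaling factors, DESeq2 1.42.0, limma-voom 3.58.1, other filters, each genotype alone, each mouse left out and the mouse as a block. Libraries of a mouse come from the same animal, and their deviations correlated across genes (r from 0.139 to 0.567 in 36 pairs, against -0.432 to 0.0742 in 72 pairs of different mice). Named were the 10 members, Aim2, up to 4 genes of highest mean CPM per pathway list, and the 8 genes most correlated with each class, of which 1 is not reported here. Other genes (Ly6g, Cebpe, Mmp9, and in the closing section Prss34, Mcpt8 and Cd200r3) were named after their values were seen.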

Additional observations from a re-analysis of the deposited data

How the results depend on the processing

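The 24 h calls were the stable ones: Mpo, Elane and Prtn3 were lower in both genotypes in every alternative run. Counts of members called that left a factor of 1.5 of the main count were as follows. With the mouse as replicate block, the pairing of libraries by animal gave 4 calls at 6 h in WT (0 without it), 8 at 24 h in WT (4), 3 at 3 h in Aim2-/- (0), 4 at 6 h in Aim2-/- (1) and 9 at 24 h in Aim2-/- cells (4). It changed no interaction call of a member. With the block 9071, 11694, 6307, 9183 and 11614 of 15325 genes were called in either direction in these comparisons, in the same order. With no filter on low counts 3 members were called at 6 h in each genotype. With only the libraries of one genotype fitted, 3 were called at 6 h in WT and 0 in Aim2-/- cells, where library totals alone gave 0 and limma-voom 3. Leaving out each mouse in turn gave 0 to 4 at 6 h in WT and 0 to 3 at 6 h in Aim2-/- cells. The cause of these shifts was not tested. For the alternatives other than the block, the shares of all genes called are not given here, so nothing is read from their counts of members. For the secondary class, the log2 ratio of Aim2-/- to WT summed CPM was 3.37, 3.87, 3.53 and 4.21 at 0, 3, 6 and 24 h, and ranged from 0.88 to 6.55, from 0.54 to 4.44, from 0.81 to 4.95 and from 0.52 to 4.80 with each mouse left out, lowest each time without Aim2-/- 1 and at 0 h highest without WT 3. For the primary class it stayed between 1.94 and 3.78. No count or class ratio changed direction, but for single genes the log2 genotype difference turned without Aim2-/- 1, from 3.97 to -1.69 for Ltf at 3 h, from 1.78 to -0.13 for Ltf at 24 h and from 3.18 to -0.25 for Camp at 6 h. Of 123 counts, 108 kept within the factor, 12 rose and 3 fell. Some adjusted p values of the scarce members were not given by DESeq2 and were left out. At 19715161 to 21627018 counts per library the WT levels of the secondary class lie near the floor of 3 counts.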

Other observations

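Prss34 and Mcpt8 encode basophil proteases that share the trypsin-like fold of the granule proteases but are stored in other cells. Both were also higher in the Aim2-/- libraries (a description without a test). Not all basophil and mast cell markers differed in this way. At 0 h Cd200r3 overlapped between the genotypes (1.15 to 1.76 CPM in WT, 1.43 to 2.18 CPM in Aim2-/- libraries), as did Kit (16.6 to 20.9 and 19.4 to 46.5 CPM). Prss34, encoding a basophil protease, had a mean of 4.19 ± 0.958 CPM in WT and 39.6 ± 12.4 CPM in Aim2-/- libraries at 0 h (SD, n = 3), and at 24 h 3.08 ± 1.04 and 30.5 ± 19.2 CPM. It did not pass the unblocked edgeR test at 24 h in WT (log2 fold change -0.44, SE 0.514, adjusted p = 0.452) or in Aim2-/- cells (-0.37, SE 0.434, adjusted p = 0.451, with the mouse block -0.50, adjusted p = 0.0378). Mcpt8, a basophil marker, had means of 2.72 ± 0.794 CPM at 0 h and 4.56 ± 1.65 CPM at 24 h in WT libraries, and of 24.0 ± 6.51 and 49.2 ± 32.6 CPM in Aim2-/- libraries (SD, n = 3). Its log2 fold change was 0.74 in WT (SE 0.517, adjusted p = 0.204, with the block 0.77, adjusted p = 0.0205) and 1.04 in Aim2-/- cells (SE 0.44, adjusted p = 0.0411). Prss34, Mcpt8 and Cd200r3 were named after their values were seen, and their course was not compared with that of the members by a test.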
